A study of Homo sapiens with 6 samples.

Results

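Intronic and overlapping transcripts are long non-coding RNAs named after a protein-coding gene on the same strand. A name ending in IT marks a transcript inside an intron of the coding gene, and one ending in OT marks a transcript that overlaps it or runs around it. Because they share the strand of their host, their RNA can lie within the unspliced host RNA, and a count over such a gene holds both unless reads are separated by splicing. SFPQ is a nuclear RNA-binding protein of paraspeckles with known roles in splicing and in transcript processing, and it binds intronic sequence. IT and OT rows are therefore read here as counts over a place in a host gene.

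The 50 members were the rows with a name ending in -IT or -OT, with or without a number, and a sum of at least 10 counts over 6 libraries, leaving out zinc-finger gene names. They were 50 of 35036 genes in the table, 38 IT and 12 OT. They were chosen by that sum of counts over both groups, so how much they were counted is given as a description. Of 139 such names, 45 had no count and 44 had 1 to 9. The share of names that reached the minimum was 30.9% for IT, 75.0% for OT and 32.3% for all genes of the table. Just below it lay WWTR1-IT1 with 8 counts and SOX1-OT and STX18-IT1 with 9, and just above it ASH1L-IT1 and E2F3-IT1 with 10 and CDC42-IT1 with 12. The rule left out ZBTB40-IT1 and ZNF346-IT1, with 14 and 37 counts.

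The libraries came from U-2OS, a human osteosarcoma cell line. In the SiSFPQ group (n = 3) the cells had an siRNA against SFPQ and in the SiCtrl group (n = 3) a control siRNA, and all 6 received actinomycin D, which blocks transcription by binding DNA, so no untreated cells are compared. The labels name neither its dose nor its duration. RNA was selected for poly(A) tails. No label says that the libraries are separate cultures, so the p-values measure the spread between these samples, which may be technical. SFPQ had no row under that name in the table, so its counts were not analysed here and the knockdown rests on the labels alone. The other coding genes looked up by name had no row either. All genes therefore means the rows of this table, which may not cover coding genes. The table held 1298658 to 1599566 counts in SiSFPQ and 1385532 to 1533974 in SiCtrl libraries, of which the members took 0.221% to 0.240% in SiSFPQ and 0.227% to 0.231% in SiCtrl. The summed share of the members therefore overlapped between the groups.

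The members' positions followed their names. Here a coding exon is any exon of any transcript of a protein-coding gene, untranslated parts included. All 38 IT members lay inside their host gene on its strand in GENCODE 29, and 36 of them had no base in a host exon. The exceptions were MAGI1-IT1 and SND1-IT1, with 8.26% and 19.3% of their exon bases in coding exons. All 12 OT members had a listed span that touched a coding exon, where 27.0% of all genes of the table did, and 5 of the 12 had under 10% of their own exon bases in coding exons. The OT members stood in several kinds of place. SOX2-OT, SPANXA2-OT1 and ANXA2R-OT1 ran around the whole named gene. TGFB2-OT1 lay with 100% of its bases in an exon of TGFB2, SOD2-OT1 with 95.9% in coding exons, WDR7-OT1 with 93.3% and SLC9A3-OT1 with 85.4%. For these members the counts cannot be told from reads of the coding gene. The coding exons touched by the span of SOD2-OT1 are those of ACAT2 and of SOD2, which that release lists as more than 1 gene. Of the 50 members, 38 had no other row of at least 10 counts over them, and 7 were single-exon genes.

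Poly(A) selection keeps RNA with a tail, so the annotated ends of the IT members called lower by both edgeR and DESeq2 are printed to show whether they carry a poly(A) signal. They are the last 120 bases of the GENCODE 29 transcript on GRCh38, and capitals mark the poly(A) signals AATAAA or ATTAAA found on the transcript's strand in the last 50 bases.
ALMS1-IT1, chr2:73459363-73459482, plus strand: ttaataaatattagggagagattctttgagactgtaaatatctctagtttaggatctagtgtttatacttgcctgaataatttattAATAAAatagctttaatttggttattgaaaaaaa
NPTN-IT1, chr15:73567012-73567131, minus strand: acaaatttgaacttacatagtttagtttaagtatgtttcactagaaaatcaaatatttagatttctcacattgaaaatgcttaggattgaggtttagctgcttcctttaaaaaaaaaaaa
ALMS1-IT1 has AATAAA 34 bases before its annotated end. NPTN-IT1 has neither motif in that window and ends in a run of 12 A that is part of the annotated transcript. Over the members, 24 of 50 (48.0%) had AATAAA or ATTAAA in the last 50 bases of at least 1 transcript, against 51.6% of the 13886 table genes in that release and 54.9% of its 3775 tested genes. A run of 10 or more A stood in a transcript of 10 of the 50 members, against 10.4% of the table genes and 14.8% of the tested genes in that release. It stood in 0 of the 8 members called higher and in 3 of the 7 called lower, which were ALMS1-IT1, NPTN-IT1 and MUC20-OT1. Of the 9 tested members not called, FOXP1-IT1, GABPB1-IT1, HEXD-IT1 and SOX2-OT also held such a run, so it was not particular to members called lower. Longer transcripts, and genes with many transcripts such as MUC20-OT1, have more bases that could hold such a run.

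The comparison asked which members changed with the SFPQ siRNA in cells that had all received actinomycin D. Of the 50 members, 24 passed the filter on low counts and were tested in a fit over 6325 genes. With edgeR (quasi-likelihood, Benjamini-Hochberg adjusted p under 0.05), 8 rose and 7 fell in SiSFPQ and 9 were not called. The background was high: 48.4% of all tested genes were called, 24.5% higher and 24.0% lower. For the members these shares were 62.5%, 33.3% and 29.2%. The called share depended on counts. Among all tested genes it was 29.6% at a sum of 50 to 99, 39.9% at 100 to 299, 56% at 300 to 999 and 72.7% at 1000 or more. The members called in these ranges were 2 of 4, 4 of 6, 4 of 8 and 4 of 5. EIPR1-IT1 had 47 counts, and of tested genes with up to 49 counts 78.8% were called. Among IT members 5 rose and 4 fell of 15, and among OT members 3 rose and 3 fell of 9. The median log2 fold change was 0.13 over the tested members and 0.01 over all tested genes. Its sign was not stable: over the 9 pairs of single SiSFPQ and SiCtrl libraries the tested members' median ran from -0.17 to 0.30. Without SiSFPQ replicate 2 it was 0.02. Over wider sets with more low-count members it was negative. It was -0.075 over 49 members at 1 CPM in 3 libraries, and over all 50 it was -0.059 with no filter and -0.061 in DESeq2. The median size, without sign, was 0.58 over the members and 0.39 over all tested genes. The CPM of the groups did not overlap for 16 of the 24, against 54.0% of all tested genes. EIPR1-IT1, RSF1-IT2 and KBTBD11-OT1 reached the filter's minimum in SiSFPQ libraries alone, so a higher value there was a condition of their being tested. Of the 21 others, 5 rose and 7 fell. The members' counts and medians describe these genes and are not tested against the background. In bulk RNA, fewer cells with a transcript and less of it per cell cannot be told apart.

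DESeq2, which called 23.0% of the genes it gave an adjusted p, called 3 members higher and 4 lower, against 11.2% and 11.8% of those genes. Some members below the filter, such as E2F3-IT1, had no adjusted p in DESeq2. No member share is therefore set beside these background shares, and no excess is read from the calls. All 7 were among the 15 called by edgeR. They are described first, and the other 8 after them.

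**Figure D1:**
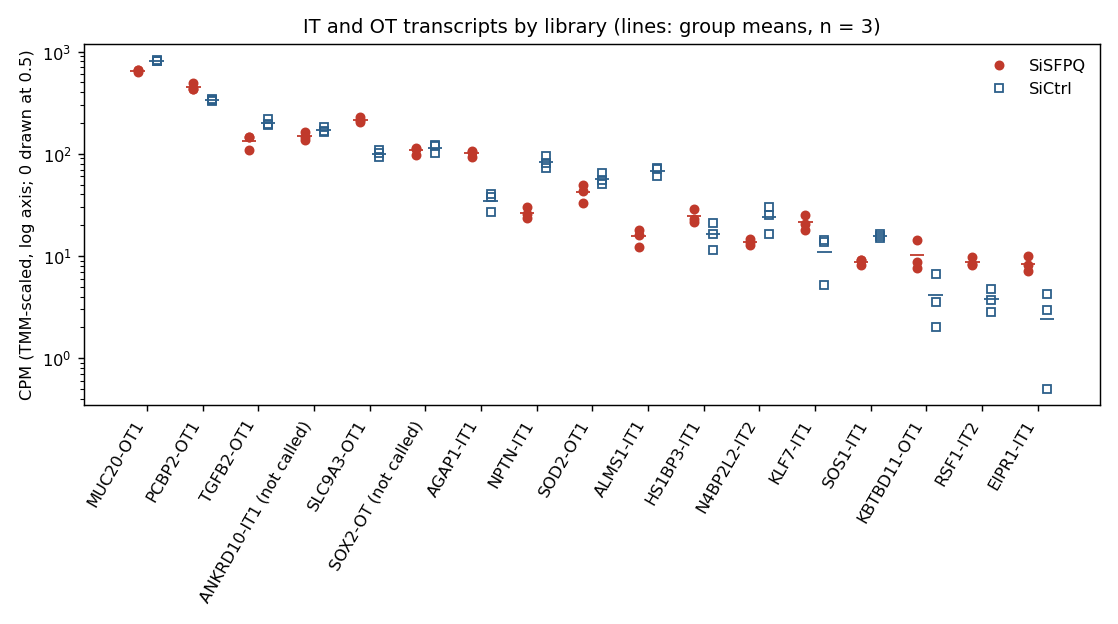
CPM (TMM-scaled, log axis) in each of the 6 libraries for the 15 called members and the 6 most abundant ones, 17 in all, ordered by mean level. Filled circles are SiSFPQ, open squares SiCtrl and lines the group means (n = 3 each), and the library of EIPR1-IT1 at 0 is drawn at 0.5. The groups stand apart for the called members, and for SOX2-OT they overlap.

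AGAP1-IT1 showed the largest rise among the 7. It is an intronic transcript of AGAP1, which encodes a GTPase-activating protein for Arf proteins of membrane traffic (ENSG00000235529, chromosome 2, 235505539 to 235507566). It had 93.2, 103 and 105 CPM in SiSFPQ, against 27.1, 40.1 and 37.4 CPM in SiCtrl. Every SiSFPQ library lay above every SiCtrl library, and the log2 fold change was 1.53 ± 0.14 (SE, edgeR adjusted p = 6.2e-28).

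SLC9A3-OT1 overlaps SLC9A3, which encodes a sodium and proton exchanger of the plasma membrane (ENSG00000188242, chromosome 5, 466124 to 472743). It had 212, 206 and 227 CPM in SiSFPQ, against 92.1, 101 and 108 CPM in SiCtrl. The groups did not overlap, and the log2 fold change was 1.10 ± 0.09 (SE, edgeR adjusted p = 1.1e-30). Of its exon bases 85.4% lie in coding exons, those of SLC9A3 and EXOC3 among them, so its counts cannot be told from reads of those genes.

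PCBP2-OT1 lies inside PCBP2, whose protein binds poly(C) sequence in RNA (ENSG00000282977, chromosome 12, 53464468 to 53465057). It had 426, 430 and 488 CPM in SiSFPQ, against 341, 334 and 328 CPM in SiCtrl. The groups did not overlap, and the log2 fold change was 0.42 ± 0.07 (SE, edgeR adjusted p = 7.6e-10). Its row had the highest level per length of the members, at 663 CPM per kilobase of listed length over all 6 libraries. Of its exon bases 15.8% lie in exons of PCBP2, and reads of these cannot be told apart. PCBP2-OT1 also lies within a more abundant row on its strand, given below, whose reads it may share.

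ALMS1-IT1 fell furthest of the tested members. Its host ALMS1 encodes a protein of the centrosome and of the base of cilia (ENSG00000230002, chromosome 2, 73456764 to 73459482). It had 12.2, 16.2 and 18.1 CPM in SiSFPQ, against 72.1, 61.1 and 70.3 CPM in SiCtrl. The highest SiSFPQ library was far below the lowest SiCtrl library, with a log2 fold change of -2.10 ± 0.18 (SE, edgeR adjusted p = 1.7e-29).

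NPTN-IT1 lies in an intron of NPTN, which encodes the cell adhesion protein neuroplastin (ENSG00000281183, chromosome 15, 73567012 to 73569294). It had 23.7, 29.9 and 25.9 CPM in SiSFPQ, against 94.9, 80.9 and 71.8 CPM in SiCtrl. The groups were well apart, with a log2 fold change of -1.63 ± 0.15 (SE, edgeR adjusted p = 1.0e-25). NPTN-IT1 and ALMS1-IT1 had no base in coding exons and no other row of at least 10 counts over them. Unspliced host RNA would be counted with either, and its part in the falls was not tested.

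The other pair of falls were smaller and in more abundant OT members. TGFB2-OT1 lies within an exon of TGFB2, which encodes a ligand of the TGF-beta family (ENSG00000281453, chromosome 1, 218442626 to 218443996). It had 108, 146 and 146 CPM in SiSFPQ, against 217, 195 and 192 CPM in SiCtrl. All SiSFPQ libraries were lower, with a log2 fold change of -0.58 ± 0.09 (SE, edgeR adjusted p = 4.0e-10). Its counts cannot be told from TGFB2 reads.

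MUC20-OT1 overlaps the mucin gene MUC20, has many transcripts and was the member with the most counts (ENSG00000242086, chromosome 3, 195635709 to 195739964). It had 629, 665 and 654 CPM in SiSFPQ, against 809, 819 and 800 CPM in SiCtrl. The groups did not overlap, and the log2 fold change was -0.32 ± 0.06 (SE, edgeR adjusted p = 7.6e-08). Of its exon bases in GENCODE 29, 10.3% lie in coding exons of MUC20, and reads of these cannot be told apart.

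**Figure D2:**
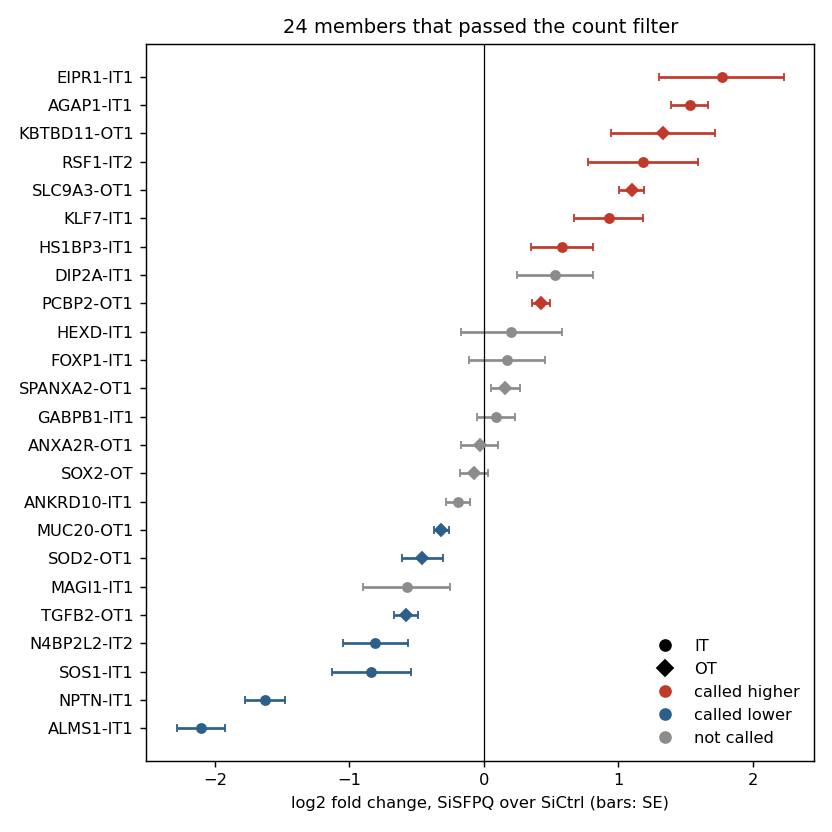
Log2 fold change of SiSFPQ over SiCtrl for the 24 members that passed the count filter, with bars of 1 SE, circles for IT and diamonds for OT. Those called higher run from PCBP2-OT1 (0.42) to EIPR1-IT1 (1.77) and those called lower from MUC20-OT1 (-0.32) to ALMS1-IT1 (-2.10).

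The 5 further rises were of members under 30 CPM in every library, and DESeq2 called none of them. EIPR1-IT1, in the gene of a protein that works with tethering complexes of endosome traffic, had 9.93, 8.10 and 7.11 CPM in SiSFPQ, against 4.28, 0 and 2.99 CPM in SiCtrl. No library of the groups overlapped, and the log2 fold change was 1.77 ± 0.47 (SE, edgeR adjusted p = 0.00054). It was 1.15 without SiCtrl replicate 2, the library at 0, and 2.46 without SiCtrl replicate 1, and DESeq2 gave an adjusted p of 0.071.

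RSF1-IT2, in the gene of a chromatin remodelling factor, had 8.40, 8.10 and 9.70 CPM in SiSFPQ, against 2.85, 4.76 and 3.74 CPM in SiCtrl. The groups were apart, at a log2 fold change of 1.18 ± 0.41 (SE, edgeR adjusted p = 0.010). The call was lost without SiCtrl replicate 1 (edgeR adjusted p = 0.073), without SiSFPQ replicate 3 (0.052) and in DESeq2 (0.17).

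KBTBD11-OT1, at the gene of a kelch and BTB domain protein, had 7.64, 8.72 and 14.2 CPM in SiSFPQ, against 3.57, 2.04 and 6.73 CPM in SiCtrl. The lowest SiSFPQ library was just above the highest SiCtrl library. The log2 fold change was 1.33 ± 0.39 (SE, edgeR adjusted p = 0.0019), and the call was lost without SiCtrl replicate 2 (edgeR adjusted p = 0.052), without SiSFPQ replicate 3 (0.071) and in DESeq2 (0.12).

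KLF7-IT1, in the gene of a Krüppel-like transcription factor, had 20.6, 18.1 and 25.2 CPM in SiSFPQ, against 14.3, 13.6 and 5.24 CPM in SiCtrl. SiCtrl replicate 3 was well below the other two. The log2 fold change was 0.93 ± 0.26 (SE, edgeR adjusted p = 0.0012). Without SiCtrl replicate 3 it was 0.60 and no longer called (edgeR adjusted p = 0.066), and DESeq2 gave 0.089.

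HS1BP3-IT1, whose host HS1BP3 encodes a protein that binds HCLS1, had 29.02, 23.0 and 21.3 CPM in SiSFPQ, against 16.4, 11.6 and 20.9 CPM in SiCtrl. The groups came close to touching, at a log2 fold change of 0.58 ± 0.23 (SE, edgeR adjusted p = 0.027). Its call ended under more of the alternatives than that of any other member named here. Leaving out SiCtrl replicate 1 ended it (edgeR adjusted p = 0.058), as did leaving out SiCtrl replicate 2 (0.25) or SiSFPQ replicate 1 (0.14). Testing without a filter (0.088) and DESeq2 (0.25) did not call it either.

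The 3 further falls were likewise not called by DESeq2. SOS1-IT1, in the gene of an exchange factor for Ras, had 9.16, 8.10 and 9.05 CPM in SiSFPQ, against 15.7, 14.9 and 16.5 CPM in SiCtrl. Libraries of each group lay close together, and the log2 fold change was -0.84 ± 0.29 (SE, edgeR adjusted p = 0.011; DESeq2 0.17).

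N4BP2L2-IT2, a single-exon transcript in N4BP2L2, had 14.5, 13.7 and 12.9 CPM in SiSFPQ, against 30.0, 25.1 and 16.5 CPM in SiCtrl. The SiCtrl libraries were spread more widely than the SiSFPQ libraries. The log2 fold change was -0.81 ± 0.24 (SE, edgeR adjusted p = 0.0025), and the call was lost without SiCtrl replicate 1 (edgeR adjusted p = 0.055) and in DESeq2 (0.10).

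SOD2-OT1, named for the mitochondrial superoxide dismutase gene, had 49.6, 43.0 and 33.0 CPM in SiSFPQ, against 50.7, 64.5 and 55.4 CPM in SiCtrl. The groups nearly met. The log2 fold change was -0.46 ± 0.15 (SE, edgeR adjusted p = 0.0061), and the call was lost without SiCtrl replicate 2 (edgeR adjusted p = 0.071), without SiSFPQ replicate 3 (0.12) and in DESeq2 (0.16).

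The other 9 tested members were not called. ANKRD10-IT1, in the gene of an ankyrin repeat protein, was the most abundant IT member, at 144, 162 and 138 CPM in SiSFPQ, against 162, 166 and 182 CPM in SiCtrl. Its groups stood just apart, at a log2 fold change of -0.20 ± 0.09 (SE, edgeR adjusted p = 0.056). It was called with RLE factors (edgeR adjusted p = 0.046), without SiCtrl replicate 1 (0.038) and without SiSFPQ replicate 2 (0.025). SOX2-OT, which runs around the gene of the stem cell factor SOX2, had 97.7, 113 and 112 CPM in SiSFPQ, against 121, 118 and 102 CPM in SiCtrl, with groups that overlapped (log2 fold change -0.07 ± 0.10, SE, edgeR adjusted p = 0.59). The other 7 had log2 fold changes of -0.58 for MAGI1-IT1, -0.03 for ANXA2R-OT1, 0.09 for GABPB1-IT1, 0.16 for SPANXA2-OT1, 0.17 for FOXP1-IT1, 0.20 for HEXD-IT1 and 0.53 for DIP2A-IT1. Their adjusted p ran from 0.11 to 0.86, and a p that misses the threshold does not show that levels were equal. Per kilobase of listed length, ANKRD10-IT1 stood at 199 CPM, TGFB2-OT1 at 122 and AGAP1-IT1 at 88.6, while SOX2-OT, listed with 39096 exonic bases, stood at 2.83.

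The called IT members differed in listed length by direction, a pattern chosen after the values were seen. The 5 that rose were 566 to 765 bases long, and the 4 that fell were 1254 to 4890 bases long. None of the 5 was a single-exon gene and 2 of the 4 were. EIPR1-IT1 and RSF1-IT2, among the 5, were tested only through their higher SiSFPQ values, and the split and the correlation rest partly on them. The 6 IT members not called spanned both, from 428 to 5926 bases. The OT members showed no such split: 590 to 3659 bases for the 3 that rose and 1371 to 25580 for the 3 that fell. Spearman's rho of listed length with log2 fold change was -0.64 over the 15 tested IT members, -0.03 over the 9 tested OT members and -0.02 over all 6325 genes. With a filter of 1 CPM in 3 libraries, which kept more low-count genes, it was -0.32 over 37 IT members. Genes share libraries and are not replicates, so these values are descriptions. Among all tested genes, 23.1% rose and 21.5% fell of those under 1000 bases, and 25.0% and 25.0% of the longer ones.

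**Figure D3:**
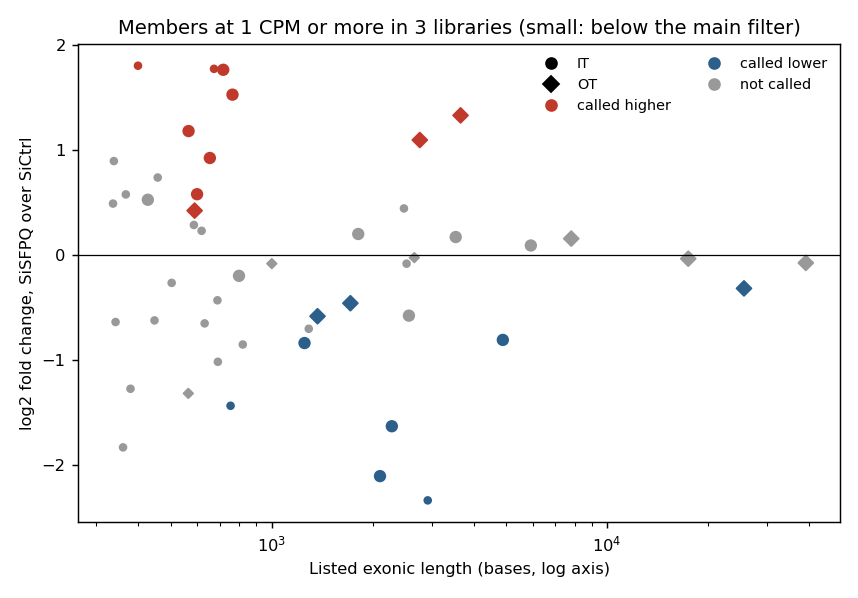
Log2 fold change of SiSFPQ over SiCtrl against listed exonic length (log axis) for the 49 members with at least 1 CPM in 3 libraries, circles for IT and diamonds for OT. Small symbols did not pass the main filter, and colours give calls in this wider fit, where the 7 IT members called higher are 400 to 765 bases long and the 6 called lower 755 to 4890.

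Another 26 members lay below the filter, with 10 to 62 counts in all. For 9 of them the CPM of the groups did not overlap, 3 higher and 6 lower in SiSFPQ, where 23.1% of table genes of at least 10 counts below the filter had groups that did not overlap. The 3 were GRK5-IT1, ZNRF3-IT1 and AGBL5-IT1. The 6 were BACH1-IT1, CDC42-IT1, KDM5C-IT1, RASA3-IT1, SMYD3-IT1 and TTLL7-IT1. In the fit with 1 CPM in 3 libraries, 49 members were tested and 10 were higher and 9 lower, against 14.6% and 14.3% of 11651 genes. This added 4 calls to the 15.

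GRK5-IT1, in the gene of a G protein-coupled receptor kinase, had 15, 9 and 14 counts in SiSFPQ, against 1, 3 and 6 counts in SiCtrl (log2 fold change 1.80 in that fit, edgeR adjusted p = 0.00076). ZNRF3-IT1, in the gene of a ubiquitin ligase that removes Wnt receptors, had 6, 14 and 10 counts in SiSFPQ, against 2, 2 and 4 in SiCtrl (1.77, edgeR adjusted p = 0.0040). Both were higher in every SiSFPQ library than in any SiCtrl library.

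KDM5C-IT1, in a histone demethylase gene, had 1, 4 and 3 counts in SiSFPQ, against 7, 6 and 8 in SiCtrl (-1.44, edgeR adjusted p = 0.046). TTLL7-IT1, in the gene of a tubulin-modifying ligase, had 0, 1 and 1 counts in SiSFPQ, against 7, 2 and 2 in SiCtrl (-2.34, edgeR adjusted p = 0.046). TTLL7-IT1 reached 1 CPM in SiCtrl libraries alone, so a higher SiCtrl value was a condition of its being tested in that fit. Neither KDM5C-IT1 nor TTLL7-IT1 was called with no filter (edgeR adjusted p = 0.095 and 0.099). The fit with no filter called 10 members higher and 7 lower, against 6.9% and 6.8% of 21006 genes with any count. All members have at least 10 counts, which only 11301 table genes reach. These shares are thus of unlike sets, and no excess is read from them. E2F3-IT1, in the gene of a cell cycle transcription factor, had 3, 0 and 7 counts in SiSFPQ and 0 in each SiCtrl library, and SiSFPQ replicate 2 was thus no different from SiCtrl. It was tested only with no filter (edgeR adjusted p = 0.014), and no fold is given. All its 10 counts were in SiSFPQ, so a higher SiSFPQ value was a condition of its being a member. Its place among the 10 called higher there was thus partly set by the rule.

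The remaining members below the filter were ACAP2-IT1, ASH1L-IT1, BACH1-IT2, C21orf91-OT1, ERI3-IT1, FAR1-IT1, FMR1-IT1, KIRREL1-IT1, NRG1-IT1, RNF216-IT1, RSF1-IT1, SMAD9-IT1, SND1-IT1, ST7-OT4, TCF7L1-IT1 and WDR7-OT1. None of these was called in the fit with 1 CPM in 3 libraries. At such counts a change was not detectable unless it was large.

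Members that share a locus with another row were set beside it. PCBP2-OT1 lies within ENSG00000257379 on the same strand, which averaged 5323 ± 111 CPM in SiSFPQ and 4084 ± 88.2 CPM in SiCtrl (SD, n = 3 each) and rose by a log2 fold of 0.38. The log2 ratio of PCBP2-OT1 to that row averaged -3.57 ± 0.08 in SiSFPQ and -3.61 ± 0.05 in SiCtrl (SD, n = 3 each); a two-sided exact permutation test, which cannot go below 0.1 here, gave p = 0.6. KBTBD11-OT1 and ENSG00000270988 overlap on the same strand too, and ENSG00000270988 averaged 9.82 ± 3.29 CPM in SiSFPQ and 3.99 ± 2.69 CPM in SiCtrl (SD, n = 3 each). It rose by a log2 fold of 1.27 (edgeR adjusted p = 0.0036). Both of these members lie over a row that was called in the same direction and whose reads they may share. ENSG00000270988, like KBTBD11-OT1, reached the filter's minimum in SiSFPQ libraries alone. A higher value there was a condition of its being tested, so for that pair the shared direction was partly set by the filter.

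Antisense genes of the hosts, annotated on the other strand from the members, went in the same or the opposite direction. The counting did not keep strands separate, as given below, so these rows may also hold reads of a host or member they overlap. SLC9A3-AS1, on the other strand and not overlapping SLC9A3-OT1, had 417 ± 7.14 CPM in SiSFPQ and 576 ± 33.4 CPM in SiCtrl (SD, n = 3 each). It fell by 0.47 on the log2 scale (edgeR adjusted p = 3.3e-13), while SLC9A3-OT1 rose. TGFB2-AS1, on the other strand near the start of TGFB2, had 218 ± 25.6 CPM in SiSFPQ and 176 ± 10.7 CPM in SiCtrl (SD, n = 3 each). It rose by 0.32 (edgeR adjusted p = 0.00041), while TGFB2-OT1 fell. ZNRF3-AS1 had 11.2 ± 1.17 CPM in SiSFPQ and 4.52 ± 0.46 CPM in SiCtrl (SD, n = 3 each) and rose by 1.296 (edgeR adjusted p = 0.0016). In SiCtrl ZNRF3-AS1 lay below the filter's minimum of about 6.68 CPM, so a higher SiSFPQ value was a condition of its being tested. ZNRF3-IT1 was higher too in the fit with 1 CPM in 3 libraries. GABPB1-AS1 rose by 0.61 (edgeR adjusted p = 2.6e-08), CDC42-AS1 by 1.01 (2.0e-07) and ASH1L-AS1 by 0.81 (0.00014), while GABPB1-IT1 was not called and CDC42-IT1 and ASH1L-IT1 were below the filter. ANXA2R-AS1 (edgeR adjusted p = 0.097), ST7-AS1 (0.98), ST7-AS2 (0.075) and ENSG00000251131 over ANXA2R-OT1 (0.86) were not called. ENSG00000244676, on the other strand over C21orf91-OT1, fell by 1.11 (edgeR adjusted p = 0.015). In SiSFPQ ENSG00000244676 averaged 3.96 CPM, below the filter's minimum, so a higher SiCtrl value was a condition of its being tested. The other-strand rows at loci of members that the main test did not call were added after their values were seen. The rows over MUC20-OT1 were not called, with log2 fold changes of -0.06 for ENSG00000289929 (edgeR adjusted p = 0.71) and -0.21 for ENSG00000299536 (0.49).

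RSF1 holds a pair of IT members. RSF1-IT1 had 2, 5 and 3 counts in SiSFPQ, against 4, 7 and 4 counts in SiCtrl, where RSF1-IT2 had 11, 13 and 15 in SiSFPQ, against 4, 7 and 5 in SiCtrl. The log2 ratio of RSF1-IT2 to RSF1-IT1, with 0.5 added to each count, averaged 1.88 ± 0.51 in SiSFPQ and 0.10 ± 0.17 in SiCtrl (SD, n = 3). RSF1-IT2 was tested only because it reached the filter's minimum in SiSFPQ, and RSF1-IT1 had few counts, so this ratio is a description of a chosen member. The ratios of SLC9A3-OT1 to SLC9A3-AS1 and of TGFB2-OT1 to TGFB2-AS1 differed by 1.56 and -0.91 on the log2 scale between SiSFPQ and SiCtrl. A two-sided exact permutation test gave p = 0.1 for each, the smallest that 3 against 3 libraries allow, and 0.167 after Benjamini-Hochberg adjustment over 5 pairs. For KBTBD11-OT1 and ENSG00000270988 the ratio averaged 0.05 ± 0.17 in SiSFPQ and 0.11 ± 1.48 in SiCtrl (SD, n = 3 each), and the SiCtrl libraries went both ways, from -1.58 to 1.14, so whether it differs cannot be told.

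**Figure D4:**
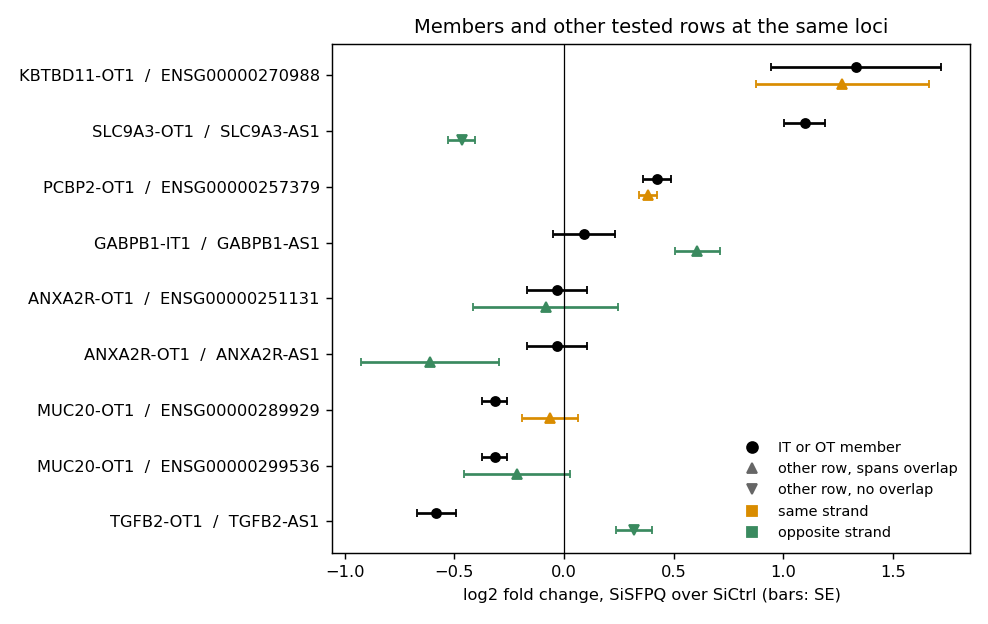
Log2 fold change (SiSFPQ over SiCtrl, bars of 1 SE) of tested members, as black circles, and of the other tested rows at the same locus, as triangles coloured by strand and pointing up where the listed spans overlap. PCBP2-OT1 and KBTBD11-OT1 lie near their same-strand partner. SLC9A3-OT1 (1.10) and TGFB2-OT1 (-0.58) lie on the other side of 0 from their antisense gene (-0.47 and 0.32). The counting did not keep strands separate, so rows at a locus may share reads. KBTBD11-OT1 and its partner were tested only through their higher SiSFPQ values.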

How the data were processed

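The authors deposited a table of raw counts for each gene in 6 libraries, with no scaling, per the file headers. No source used here names the aligner, the counter, the annotation, the build or how duplicate reads were treated. All 50 members overlapped their position in GENCODE release 29 on GRCh38, so coordinates are read as that build, and exons, coding exons and transcript sequences came from that release. MALAT1 and TALAM1, on opposite strands of the same place, held 72563 and 72552 counts, so the counting did not keep overlapping genes or strands separate.

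Counts were fitted over the whole table with edgeR 4.0.16 in R 4.3.3: filterByExpr (about 6.68 CPM in 3 libraries), TMM factors, a robust quasi-likelihood model whose only term was the group, Benjamini-Hochberg adjustment over 6325 genes and a threshold of 0.05. The SE is the fold change divided by the square root of F. CPM is relative to the counts of the filtered table, not to sequencing depth. A simulated table with known changes was used to test the fit. DESeq2 1.42.0, limma 3.58.1 (voom), other scalings and filters, a block for the replicate number, and fits that drop 1 library were the alternatives.

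The members and lists were chosen with earlier results of these data known. Full values are given for every called member and the 6 most abundant, with other tested rows at the loci. Same-numbered libraries had deviations that correlated by -0.0047, 0.00097 and 0.010, so the numbers do not pair the samples. Pairs of libraries of 1 group differed by more than counting noise (chi-square per degree of freedom 1.24 to 1.40), a test of counting error alone, and were each kept as a sample. Markers of the cell line's tissue and of other cell types, looked up by name, had no row in the table and were not analysed here.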

Additional observations from a re-analysis of the deposited data

How the results depend on the processing

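Scaling by RLE, upper quartile or plain library totals, limma-voom and the replicate block left 8 members higher and 7 or 8 lower, and the block gave 8 and 7 with a median log2 fold change of 0.12. Replicate numbers do not pair the samples, and the block changed no call of a named member. With a library left out, 6 to 9 were higher and 6 to 8 lower, and the median ran from 0.02 to 0.17. DESeq2 gave 3 higher and 4 lower with a median of -0.061, against -0.063 over all genes with any count. The median was -0.059 with no filter, against -0.065 over all genes with any count. It was -0.075 with 1 CPM in 3 libraries, against -0.00058 over all genes of that fit, since members of few counts then enter. That filter was meant to be stricter and kept more genes here. Members whose listed span touches no coding exon gave 5 higher and 4 lower, and those with under 10% of exon bases in coding exons 4 lower, since fewer are tested. That last setting and leaving out members overlapped by another row were added after seeing the data. Of the values of the 17 named members under alternatives, 215 kept direction and call, 20 lost a call, 3 gained one and 0 reversed. The cause of the losses under DESeq2 was not tested. Low counts limit EIPR1-IT1, RSF1-IT2, KBTBD11-OT1 and the 26 members below the filter.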
